A study of Mus musculus with 10 samples.

Results

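Translation initiation factors bring the small ribosomal subunit, the initiator tRNA and the start codon of an mRNA together. Their transcripts were described here in B cells that lack the transcription factor Irf4 and in B cells that have it. The members were the genes whose array symbol starts with Eif and a digit, without the eIF2 kinases (Eif2ak) and the Y-linked Eif2s3y. They were chosen by name and not by a cut on their values, though earlier results of these data were known. They numbered 42 of the 18193 genes with a probe set of 1 symbol. Each gene was represented by its probe set with the highest mean over the 10 arrays. Eif1, Eif2s1, Eif3g and Eif4g1, which encode further subunits, were not analysed here as members.

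There were 5 arrays of Irf4-/- B cells, with both Irf4 alleles disrupted, and 5 arrays of Irf4+/+ B cells from littermates. All mice were 12 weeks old on a C57BL/6 background. Spleen cells were depleted magnetically of non-B cells, and the cells that remained were cultured for 3 days with an antibody to CD40 and 20 ng/ml IL-4 in both groups. Whether the 5 samples of each genotype came from separate mice or cultures is unstated, and their spread, on which every p-value rests, may therefore be technical. The values are MAS5 signals, and fold changes are differences of log2(signal + 7.9) in Irf4-/- minus Irf4+/+ arrays. A gene was called where limma's adjusted p, over all genes tested, was under 0.05.

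Irf4 transcript was still measured in Irf4-/- arrays, with a mean of 0.742 times that of Irf4+/+ arrays on its brighter probe set. Whether its probes lie in the disrupted part is unstated, so it does not check the labels. All 6 B cell markers that could be measured (Cd79a, Cd79b, Ms4a1, Cd22, Blnk and Pax5) were called higher in Irf4-/- arrays, with a summed signal of 43775 to 47927 in Irf4-/- and 23729 to 26324 in Irf4+/+ arrays. All 5 natural killer cell markers were also called higher (summed signal 7012 to 10302 in Irf4-/- and 820.2 to 1039 in Irf4+/+ arrays). Most of that sum was Gzma, with means of 8256 in Irf4-/- and 818.6 in Irf4+/+ arrays. The means of the others were 45.7 and 16.2 (Ncr1), 178.1 and 22.8 (Klrd1), 206.0 and 24.0 (Nkg7), and 297.3 and 55.1 (Prf1). Of the 6 macrophage and monocyte markers 5 were tested, and 3 were called higher (summed signal 1199 to 1399.9 in Irf4-/- and 391.5 to 474.6 in Irf4+/+ arrays). Csf1r and Fcgr1 were not called (limma's adjusted p = 0.0771 and 0.985). Cd14 was too dim to be tested, with a median of 7.8 in Irf4-/- and 5.8 in Irf4+/+ arrays. Its means were 13.7 and 6.16, the former raised by Irf4-/- replicate 4 (39.9). Of the 4 granulocyte markers, 2 were called higher (393.4 to 697 in Irf4-/- and 61.9 to 119.5 in Irf4+/+ arrays). Cd3d, Cd3e, Cd3g and Cd4 of T cells were too dim to be tested, and the T cell list summed to 81.6 to 124.5 in Irf4-/- and 92.9 to 131.6 in Irf4+/+ arrays. The erythroid and platelet list summed to 23.1 to 105.8 in Irf4-/- and 52.9 to 87.5 in Irf4+/+ arrays. The 18S ribosomal RNA control had 126.2 to 289 in Irf4-/- and 58.1 to 104.9 in Irf4+/+ arrays. The part of these differences in the results below was not tested. In RNA of mixed cells, fewer cells of a type and less RNA per cell cannot be told apart.

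Initiation begins when eIF2, loaded with GTP and the initiator tRNA, joins the small ribosomal subunit together with eIF1, eIF1A, eIF3 and eIF5. The cap-binding complex of Eif4e, the helicase Eif4a and an eIF4G scaffold recruits the mRNA. At the start codon eIF2 hydrolyses its GTP, eIF5B joins the large subunit, and eIF2B reloads eIF2 for the next round. B cells that are activated enlarge and raise their protein synthesis before they divide.

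Initiation factor transcripts were lower in Irf4-/- B cells in most factor groups, by small amounts, while those of eIF3 were divided. Of the 41 members that passed the filter on dim probe sets, 30 fell, 6 rose and 5 were not called. Over all 12246 genes tested, 23.8% fell, 23.2% rose and 47.1% were called in either direction. The median log2 fold change was -0.24 over the members, and 0.0043 over all genes tested. Every array of one genotype lay beyond every array of the other for 28 members that were lower and 4 that were higher in Irf4-/- arrays, where 18.3% and 17.3% of all genes did so. Most members are bright. Of the 32 members with a mean signal of at least 1000, 23 fell and 6 rose, beside 38.3% lower and 29% higher among all 2476 genes as bright. The differences were small in size. Of the 41 members tested 4 were called and changed at least 1.5-fold, where 19.5% of all genes tested did so. Those 4 were Eif2b3, Eif5a2 and Eif4ebp1, which fell, and Eif3k, which rose. The member with no test was Eif4a3, an RNA helicase of the exon junction complex. Its single probe set with 1 symbol had 3.8, 3.1, 4.2, 3.8 and 6.5 in Irf4-/- and 3.9, 10.8, 4.6, 3.5 and 12.6 in Irf4+/+ arrays, near the floor of the array. This need not be the level of the transcript. A probe set that Eif4a3 shares with Gm5576 averaged 2690.4 in Irf4-/- and 2952 in Irf4+/+ arrays, and which of them it measured cannot be told apart. With each array centred on its median, 30 members fell and 3 rose, because Eif3h, Eif3i and Eif3m were no longer called (adjusted p = 0.221, 0.195 and 0.092). That centring moved the median of all genes to -0.057.

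**Figure D1:**
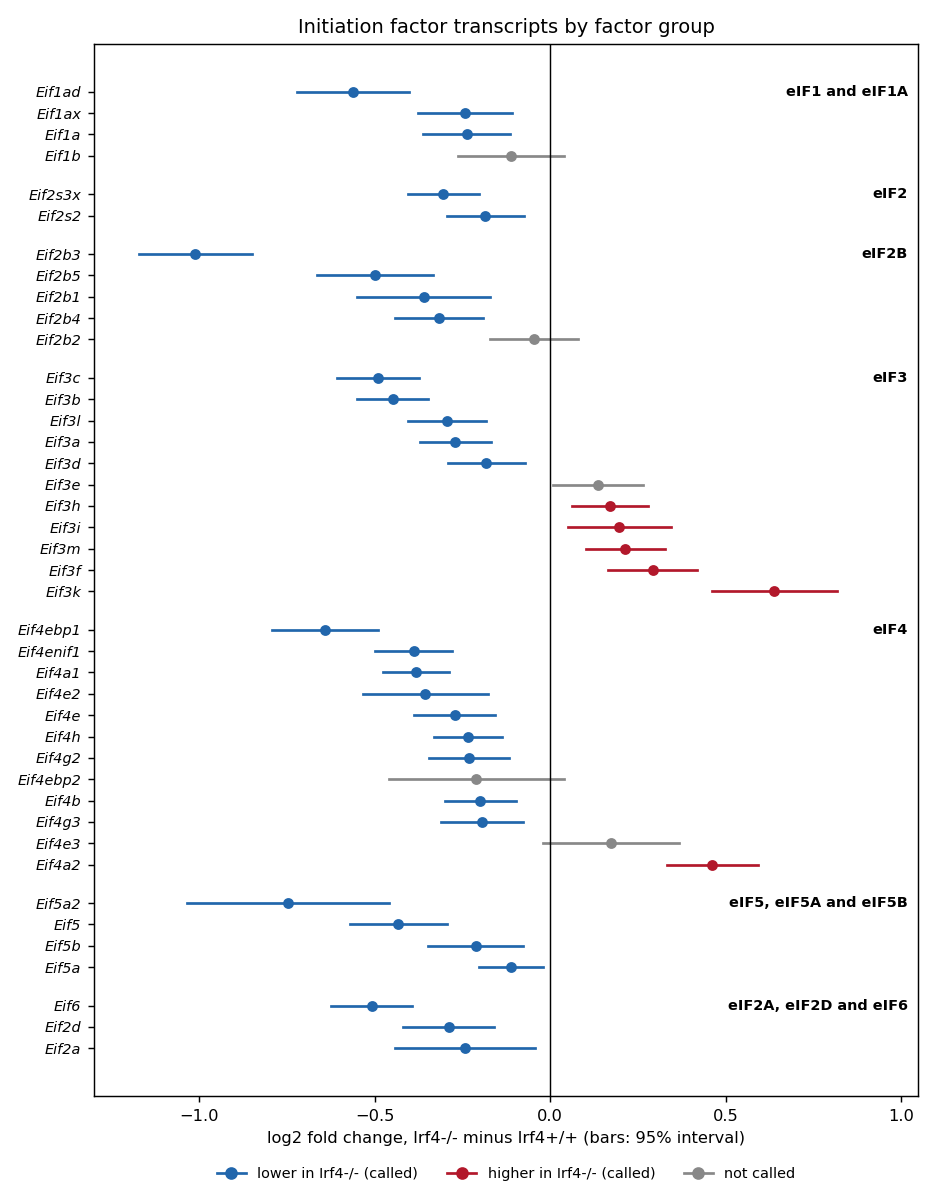
Each point is the log2 fold change of 1 initiation factor transcript, Irf4-/- minus Irf4+/+ (x axis, with its 95% interval from limma, 5 arrays per genotype), and genes run down the page by factor group. Points left of 0 are lower in Irf4-/- arrays: 30 were called lower (blue), 6 higher (red) and 5 not called (grey), and the red points lie in eIF3 and at Eif4a2. With median centring Eif3h, Eif3i and Eif3m were not called.

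eIF1 and eIF1A hold the small subunit in a form that can scan for the start codon. Of the 4 members of this group 3 fell, and the groups did not overlap for those 3. Among all genes tested, 23.8% fell, and 18.3% were lower without overlap. Eif1ad, named for an eIF1A-like domain, had 623.7, 566.0, 576.7, 524.5 and 667.4 in Irf4-/- arrays, against 859.8, 784.5, 952.8, 918.1 and 865.6 in Irf4+/+ arrays. The highest Irf4-/- array lay below the lowest Irf4+/+ array, and the gene fell 1.48-fold (log2 fold change -0.56, SE 0.0746, adjusted p = 9.51e-06). A further Eif1ad probe set of similar brightness differed by -0.0066 on the log2 scale (adjusted p = 0.975 with every probe set fitted on its own), so its 2 probe sets disagree on the size. Both genes for eIF1A fell by nearly the same amount, Eif1a 1.18-fold (adjusted p = 0.00297) and the X-linked Eif1ax 1.18-fold (adjusted p = 0.00427). Eif1b, a close relative of eIF1, averaged 724.6 ± 52.5 in Irf4-/- and 783.1 ± 62.9 in Irf4+/+ arrays (SD, n = 5 each) and was not called (log2 fold change -0.11, SE 0.0712, adjusted p = 0.229).

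eIF2 carries the initiator tRNA, and both of its measured subunits fell, where 23.8% of all genes tested did so. Eif2s3x, the GTP-binding gamma subunit encoded on the X chromosome, had 4261, 4491, 4539.8, 4586 and 4895 in Irf4-/- arrays, against 5470.1, 5801, 5618, 5615 and 5599 in Irf4+/+ arrays. The genotypes did not overlap, and the gene fell 1.23-fold (log2 fold change -0.30, SE 0.0476, adjusted p = 5.39e-05). Its 3 probe sets were all called lower when each was fitted on its own, with log2 fold changes of -0.47 to -0.30. Eif2s2, the beta subunit, averaged 7588 ± 488.5 in Irf4-/- and 8613 ± 287.7 in Irf4+/+ arrays (SD, n = 5 each) and fell 1.14-fold (adjusted p = 0.00779). It had 6 probe sets, all called lower, with log2 fold changes of -0.73 to -0.18, so the brightest gave the smallest difference.

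eIF2B exchanges GDP for GTP on eIF2, and its activity is what the eIF2 kinases restrain. Of its 5 subunits 4 fell, where 23.8% of all genes tested did so. The median log2 fold change was -0.36 over all 5 subunits. Eif2b3, the gamma subunit, which forms the catalytic part with the epsilon subunit, had 318.2, 266.8, 284.4, 262.2 and 274.0 in Irf4-/- arrays, against 631.7, 588.9, 579.4, 541.5 and 530.1 in Irf4+/+ arrays. This 2.02-fold fall was the largest among the members (log2 fold change -1.01, SE 0.0759, adjusted p = 1.34e-08), and it rests on 1 probe set. Eif2b5, the catalytic epsilon subunit, had 746.5, 584.6, 574.1, 588.7 and 546.1 in Irf4-/- arrays, against 822.9, 865.8, 912.8, 860.9 and 826.7 in Irf4+/+ arrays. Irf4-/- replicate 1 stood above the other Irf4-/- arrays but still below all Irf4+/+ arrays, and the gene fell 1.41-fold (log2 fold change -0.50, SE 0.078, adjusted p = 5.36e-05). Averaged with its dim second probe set, Eif2b5 lost its call (-0.38 on the log2 scale, adjusted p = 0.1). Among the regulatory subunits, Eif2b1 (alpha) fell 1.28-fold and Eif2b4 (delta) 1.24-fold, with adjusted p = 0.00313 and 0.000305. Eif2b2 (beta) averaged 2550.1 ± 174.6 in Irf4-/- and 2632 ± 152.3 in Irf4+/+ arrays (SD, n = 5 each) and was not called (log2 fold change -0.046, SE 0.0592, adjusted p = 0.565). Its 3 probe sets differed in sign, from -0.046 to 0.25, and none was called.

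eIF3 is the largest initiation factor, a scaffold that covers the small ribosomal subunit and ties it to the mRNA-bound complex. Of its 11 subunits among the members 5 fell (45.5%), 5 rose (45.5%) and Eif3e was not called, so the called subunits went both ways. These counts leave out the probe sets shared by Eif3j1 and Eif3j2, copies of a further subunit. They were lower in Irf4-/- arrays, with log2 differences of -0.70, -0.66 and -0.54. Outside eIF3, the 30 members gave 25 lower (83.3%), 1 higher (3.33%) and 4 not called. The difference between eIF3 and these members was not tested. Over all genes tested 23.8% fell and 23.2% rose. Among genes with a mean signal of at least 1000, 38.3% fell and 29% rose. The subunits that fell were Eif3a, Eif3b, Eif3c, Eif3d and Eif3l, and those that rose were Eif3f, Eif3h, Eif3i, Eif3k and Eif3m. Both subunits of the MPN type (Eif3f and Eif3h) rose. Of the 6 subunits of the PCI type 3 fell (Eif3a, Eif3c and Eif3l), 2 rose (Eif3k and Eif3m), and Eif3e was not called.

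Among the subunits that fell, Eif3b, an RNA-binding subunit that also binds Eif3i, had 2841, 2723, 2856, 2877 and 2820.1 in Irf4-/- arrays, against 3691, 3655, 4069.6, 3940.5 and 3945 in Irf4+/+ arrays. The Irf4-/- arrays lay close together and below every Irf4+/+ array, and the gene fell 1.37-fold (log2 fold change -0.45, SE 0.0479, adjusted p = 8.18e-07). Eif3c, a core subunit of the complex, had 6699, 6738, 6359, 5817 and 6319 in Irf4-/- arrays, against 9335, 8656, 9326, 9296 and 8255 in Irf4+/+ arrays. It fell 1.40-fold (log2 fold change -0.49, SE 0.0548, adjusted p = 1.4e-06), and all 4 of its probe sets were called lower, between -0.53 and -0.40. Eif3a, the largest subunit, fell 1.21-fold on its brightest probe set, with all 4 probe sets called lower, between -0.51 and -0.27. Eif3l fell 1.23-fold and Eif3d, which can itself contact the mRNA cap, 1.13-fold. Adjusted p was 0.000176 for Eif3a, 0.000181 for Eif3l and 0.00788 for Eif3d, and the genotypes did not overlap for any of these 5 subunits.

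Among the subunits that rose, Eif3k, which lies at the edge of the complex, had 5024, 5054, 4580.1, 3852 and 4627 in Irf4-/- arrays, against 3157.5, 2457, 3057, 2851 and 3325 in Irf4+/+ arrays. The lowest Irf4-/- array lay above the highest Irf4+/+ array, and the gene rose 1.56-fold (log2 fold change 0.64, SE 0.0845, adjusted p = 9.03e-06) on its single probe set. Eif3f had 12675, 11599, 11356, 10085 and 11781 in Irf4-/- arrays, against 8824, 9229.9, 10006.5, 9061 and 9748 in Irf4+/+ arrays. It rose 1.22-fold (log2 fold change 0.29, SE 0.06, adjusted p = 0.000695), again with no overlap. Eif3m rose 1.16-fold (adjusted p = 0.00302) with no overlap. Eif3h rose 1.13-fold (adjusted p = 0.0111) and Eif3i 1.15-fold (adjusted p = 0.0263), and for these the genotypes overlapped. The call of Eif3i was lost without Irf4+/+ replicate 2 or 4 or Irf4-/- replicate 1 or 2, and its adjusted p lay between 0.0017 and 0.0771 as each of the 10 arrays was left out in turn. With the mean of their probe sets Eif3i and Eif3m were not called (adjusted p = 0.0565 and 0.323), and the dimmer Eif3m probe set gave 0.0085. Eif3e averaged 9927 ± 835.4 in Irf4-/- and 9009.6 ± 445.9 in Irf4+/+ arrays (SD, n = 5 each) and was not called (log2 fold change 0.14, SE 0.061, adjusted p = 0.078). It was called higher without Irf4-/- replicate 4 (adjusted p = 0.00423), and when its 3 probe sets were averaged (adjusted p = 0.0314). Irf4-/- replicate 4 had the lowest signal of the 5 Irf4-/- arrays for Eif3e, Eif3f, Eif3h, Eif3i and Eif3k.

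**Figure D2:**
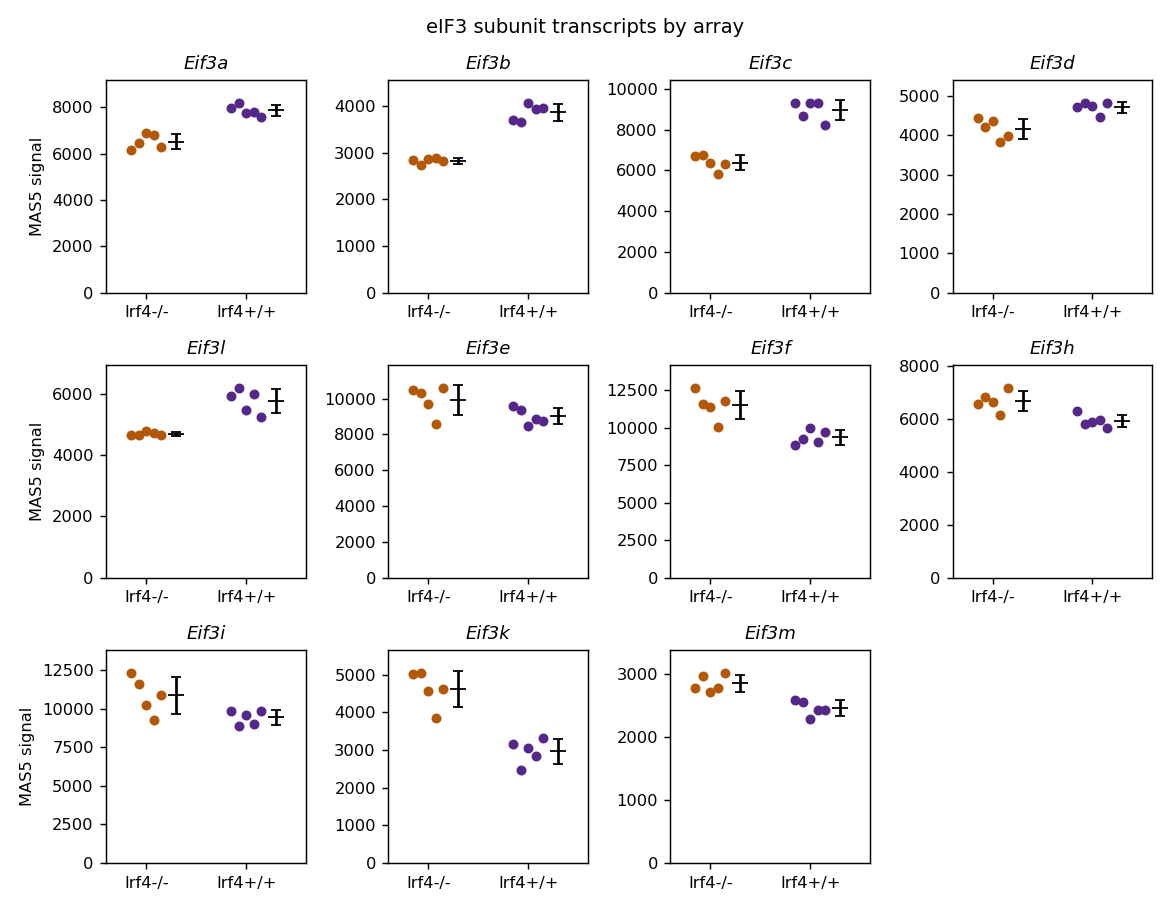
Each panel shows the MAS5 signal (y axis, from 0) of 1 eIF3 subunit in 5 Irf4-/- arrays (orange, left) and 5 Irf4+/+ arrays (purple, right), with the mean and SD beside the points. Eif3a, Eif3b, Eif3c, Eif3d and Eif3l lie lower in Irf4-/- arrays without overlap, Eif3f, Eif3k and Eif3m lie higher without overlap, and Eif3e, Eif3h and Eif3i overlap. Eif3h, Eif3i and Eif3m were not called with median centring.

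The eIF4 group reads the cap and unwinds the leader of the mRNA. Of 12 members tested 9 fell and 1 rose, 2 were not called, and the group had a median log2 fold change of -0.23. Among all genes tested, 23.8% fell and 23.2% rose. For genes with a mean signal of at least 1000 the shares were 38.3% and 29%. Eif4a1 and Eif4a2 encode near-identical helicases and went in opposite directions. Eif4a1 had 7930.4, 8311, 8006, 7729.9 and 8360.0 in Irf4-/- arrays, against 10293, 10774, 10835, 10257 and 10429.8 in Irf4+/+ arrays. It fell 1.30-fold (log2 fold change -0.38, SE 0.0442, adjusted p = 2.02e-06), and its 3 probe sets were all called lower, between -0.56 and -0.38. Eif4a2 had 7264, 7109.7, 6806, 7625.5 and 6792 in Irf4-/- arrays, against 4758, 5772, 4729, 5490.3 and 5144 in Irf4+/+ arrays. It rose 1.38-fold (log2 fold change 0.46, SE 0.0611, adjusted p = 9.25e-06) on its single probe set, and neither gene's genotypes overlapped. In each array the log2 value of Eif4a1 minus that of Eif4a2 was taken as a measure of their relative change. It averaged 0.18 ± 0.11 in Irf4-/- and 1.03 ± 0.13 in Irf4+/+ arrays (SD, n = 5 each), a difference of -0.84 (exact two-sided permutation p = 0.00794, the smallest that 5 against 5 can give). Over the 7 paralog pairs that could be measured the adjusted p was 0.0556, and over the alternatives it was 0.0185 to 0.0556. A single pair at the smallest p cannot pass 0.05 after adjustment over 7. The difference between 2 probe sets shows unequal change, and not which transcript is the more abundant.

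Eif4e, which binds the mRNA cap, had 2407, 2390.3, 2348, 2338 and 2644 in Irf4-/- arrays, against 3064, 2950.3, 2746, 3107 and 2788 in Irf4+/+ arrays. The highest Irf4-/- array, replicate 5, lay below the lowest Irf4+/+ array, and the gene fell 1.21-fold (log2 fold change -0.27, SE 0.0545, adjusted p = 0.000559). With the mean of its 4 probe sets, which range from 28.8 to 2678 in mean signal, Eif4e lost its call (-0.19 on the log2 scale, adjusted p = 0.0633). Eif4ebp1, which sequesters Eif4e until mTORC1 phosphorylates it, had 2554, 2532, 2326, 1974 and 2248 in Irf4-/- arrays, against 3746, 3309, 3545, 3576 and 3946 in Irf4+/+ arrays. It fell 1.56-fold (log2 fold change -0.64, SE 0.0707, adjusted p = 1.2e-06), the smallest p in the eIF4 group, and its 2 brighter probe sets were called lower while the dimmest gave -0.015. Eif4ebp2, its paralog, had 1252, 1021, 1293, 1241 and 1091 in Irf4-/- arrays, against 1085, 1185, 1669, 1242 and 1748 in Irf4+/+ arrays. Irf4+/+ replicates 3 and 5 were high and the genotypes overlapped, and the gene was not called (log2 fold change -0.21, SE 0.118, adjusted p = 0.163). It was called without Irf4+/+ replicate 1 (adjusted p = 0.0448). The changes of this pair differed by -0.43 on the log2 scale (exact permutation p = 0.0397, adjusted p = 0.0926 over the 7 pairs, and 0.0333 to 0.167 over the alternatives). Eif4enif1, which carries Eif4e into the nucleus and to processing bodies, fell 1.31-fold (adjusted p = 9.34e-06).

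Eif4e2, a cap-binding relative of Eif4e that represses translation, fell 1.28-fold on its brightest probe set (adjusted p = 0.00213), but its 5 probe sets included 2 called lower and 1 called higher, and their mean was not called (-0.027, adjusted p = 0.764). Eif4e3, another cap-binding relative, averaged 366.9 ± 28.2 in Irf4-/- and 325.3 ± 39.0 in Irf4+/+ arrays (SD, n = 5 each) and was not called (log2 fold change 0.17, SE 0.0912, adjusted p = 0.133), and was called higher when its 2 probe sets were averaged (0.22, adjusted p = 0.0127). Among the scaffolds, Eif4g2, which lacks the region that binds Eif4e, fell 1.17-fold (adjusted p = 0.00181) and Eif4g3 1.14-fold (adjusted p = 0.00762). Without probe sets marked as shared between transcripts Eif4g2 was not called (-0.089, adjusted p = 0.228), and the mean of the Eif4g3 probe sets had the opposite sign (0.18, adjusted p = 0.143). The helicase cofactors Eif4b and Eif4h fell 1.15-fold and 1.18-fold (adjusted p = 0.0023 and 0.000453). All 3 Eif4b probe sets were called lower. The 6 Eif4h probe sets ranged from -0.23 to 0.97, 2 called lower and 1 dim one called higher, so the direction of Eif4h is uncertain.

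**Figure D3:**
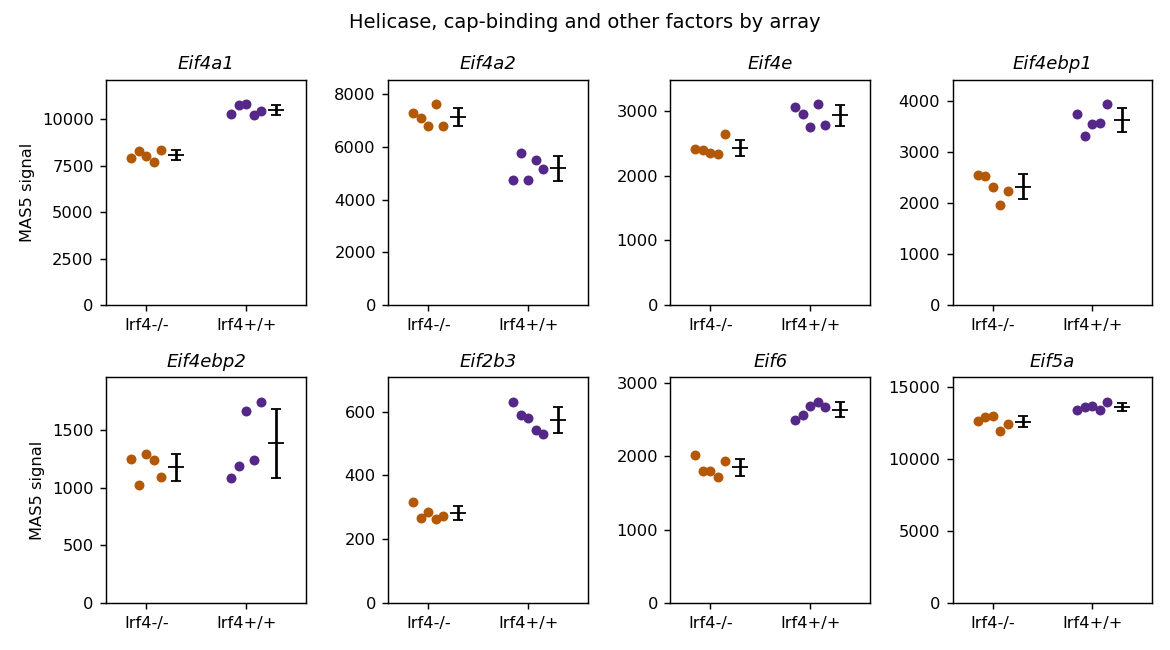
Each panel shows the MAS5 signal (y axis, from 0) of 1 gene in 5 Irf4-/- arrays (orange, left) and 5 Irf4+/+ arrays (purple, right), with the mean and SD beside the points. Eif4a1, Eif4e, Eif4ebp1, Eif2b3, Eif6 and Eif5a lie lower in Irf4-/- arrays, Eif4a2 lies higher, and Eif4ebp2 overlaps.

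Promoters were read for the helicase pair that moved in opposite directions and for the eIF3 members that fell and rose most. The 250 bases before the gene start are given, 5′ to 3′, from RefSeq on GRCm38.p6, with any match to the motifs searched in capitals. Eif4a1 lies at chr11:69672424-69672673 on the minus strand, Eif4a2 at chr16:23107218-23107467 on the plus strand, Eif3c at chr7:126566367-126566616 on the minus strand and Eif3k at chr7:28981889-28982138 on the minus strand.
Eif4a1: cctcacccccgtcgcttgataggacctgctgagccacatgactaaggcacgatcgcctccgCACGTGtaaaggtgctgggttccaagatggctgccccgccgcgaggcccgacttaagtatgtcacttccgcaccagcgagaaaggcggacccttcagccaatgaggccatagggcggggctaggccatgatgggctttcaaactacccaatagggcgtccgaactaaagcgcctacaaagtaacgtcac
Eif4a2: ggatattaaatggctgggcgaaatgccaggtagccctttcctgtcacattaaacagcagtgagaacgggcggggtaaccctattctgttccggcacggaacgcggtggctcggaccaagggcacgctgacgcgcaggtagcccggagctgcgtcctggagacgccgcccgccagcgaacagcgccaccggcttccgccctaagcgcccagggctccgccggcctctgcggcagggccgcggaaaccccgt
Eif3c: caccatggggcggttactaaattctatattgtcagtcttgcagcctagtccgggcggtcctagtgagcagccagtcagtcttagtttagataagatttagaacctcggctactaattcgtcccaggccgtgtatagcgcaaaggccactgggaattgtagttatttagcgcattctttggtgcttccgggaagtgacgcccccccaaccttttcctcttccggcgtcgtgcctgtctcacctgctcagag
Eif3k: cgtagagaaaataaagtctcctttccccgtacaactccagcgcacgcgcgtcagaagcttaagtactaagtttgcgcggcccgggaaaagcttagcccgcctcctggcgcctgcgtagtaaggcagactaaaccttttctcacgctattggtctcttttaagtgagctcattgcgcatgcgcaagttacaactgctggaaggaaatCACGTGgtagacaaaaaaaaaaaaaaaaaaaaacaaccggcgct
The motifs searched on both strands were the E-box CACGTG, to which MYC and MAX bind, and the interferon response element (GAAA, any 2 bases, GAAA) and the composite element (GGAA, any 2 bases, GAAA), to which IRF proteins bind alone or with ETS partners. The same run of bases could not match both elements, since they start with GAAA and GGAA. The capitals in Eif4a1 and Eif3k are E-boxes, starting 189 and 44 bases before the gene start, and the windows of Eif4a2 and Eif3c held none of the 3 motifs. The promoter table held 33 of the 42 members. An E-box stood in 8 of them (24.2%), against 6.86% of all 27025 genes in the table, counting any of a gene's starts. Those genes were not matched to the members in signal, base content or number of starts, and the difference was not tested. These 8 were Eif3f and Eif3k, which rose, Eif4a1, Eif4e, Eif4h, Eif5a and Eif5a2, which fell, and Eif1b, which was not called. The interferon response element stood in 1 member, Eif3a (3.03%, against 3.46% of all genes), and the composite element in 0 of 33 (against 2.68%). A match describes the letters in this window and not the binding of a factor.

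The factors of the later steps all fell, where 23.8% of all genes tested did so. Eif5, which makes eIF2 hydrolyse its GTP at the start codon, had 3106, 3137.5, 3443, 3880.2 and 3470.4 in Irf4-/- arrays, against 4409.5, 5003, 4513, 4769 and 4283 in Irf4+/+ arrays. The genotypes did not overlap, the gene fell 1.35-fold (log2 fold change -0.43, SE 0.0651, adjusted p = 3.55e-05), and 4 of its 5 probe sets were called lower. Eif5b, the GTPase that joins the ribosomal subunits, fell 1.16-fold (adjusted p = 0.0112) with overlapping genotypes. Its 2 brighter probe sets were called lower and a dim one higher, and their mean gave 0.0082 (adjusted p = 0.935). Eif5a, which carries the hypusine residue and helps ribosomes through difficult peptide bonds, had 12645, 12892, 12991, 11967 and 12453 in Irf4-/- arrays, against 13374, 13586, 13671, 13380.4 and 13976 in Irf4+/+ arrays. It fell 1.08-fold (log2 fold change -0.11, SE 0.0431, adjusted p = 0.0435), and this call was lost whichever of the 10 arrays was left out (adjusted p = 0.051 to 0.0885). Its dimmer probe set gave a larger difference, -0.32 (adjusted p = 4.01e-05 with every probe set fitted on its own). In that limma fit the brightest Eif5a probe set was not called (adjusted p = 0.0526). Eif5a2, a paralog with a low signal, averaged 127.7 ± 24.9 in Irf4-/- and 218.6 ± 31.5 in Irf4+/+ arrays (SD, n = 5 each) and fell 1.68-fold (log2 fold change -0.75, SE 0.136, adjusted p = 0.000232), while its dimmer probe set gave -0.076. The changes of Eif5a and Eif5a2 differed by 0.64 on the log2 scale (exact permutation p = 0.0159, adjusted p = 0.0556 over the 7 pairs, and 0.0278 to 0.13 over the alternatives). Over those alternatives the difference ranged from 0.19 to 0.73, with the lowest from averaging the probe sets of a gene.

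Eif6, which keeps the large ribosomal subunit from joining too early and takes part in its assembly, had 2011, 1795, 1801.5, 1722 and 1930.1 in Irf4-/- arrays, against 2501, 2568, 2691.5, 2746 and 2674 in Irf4+/+ arrays. Its genotypes did not overlap, and the gene fell 1.42-fold (log2 fold change -0.51, SE 0.0546, adjusted p = 8.78e-07). Eif2d and Eif2a, which can deliver initiator tRNA without eIF2, fell 1.22-fold (adjusted p = 0.000882) and 1.18-fold (adjusted p = 0.0446). The mean of the Eif2d probe sets was not called (-0.080, adjusted p = 0.5). The call of Eif2a was lost without Irf4+/+ replicate 1, 2 or 4 or Irf4-/- replicate 2, 3 or 4, the adjusted p lying between 0.0145 and 0.124. With every probe set fitted on its own in limma, no Eif2a probe set above the dim filter was called (adjusted p = 0.0501 and 0.12).

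The 4 remaining paralog comparisons gave no difference past the spread between arrays. The changes of Eif4e and Eif4e2 differed by 0.083 (exact permutation p = 0.397, adjusted p = 0.463), those of Eif4b and Eif4h by 0.036 (exact permutation p = 0.365, adjusted p = 0.463), those of Eif1a and Eif1ax by 0.0063 (exact permutation p = 0.929, adjusted p = 0.929) and those of Eif5 and Eif5b by -0.22 (exact permutation p = 0.0714, adjusted p = 0.125), all on the log2 scale. When the probe sets of each gene were averaged, Eif1a and Eif1ax (0.27), Eif5 and Eif5b (-0.32) and Eif4b and Eif4h (-0.37) differed with adjusted p of 0.0333, 0.0185 and 0.0185. Such averages weigh dim probe sets like bright ones. Among the dim ones were probe sets of Eif1ax (mean signal 30.9, log2 fold change -1.25), Eif5b (77.1 and 0.45) and Eif4h (108.0 and 0.97). A p that misses the threshold does not show that these pairs act alike.

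Most members are read by several probe sets, which tests the choice of the brightest. The 41 genes had 108 probe sets above the dim filter. When every probe set was fitted on its own, 59 were called lower, 12 higher and 37 not called, where 21.3% of all probe sets were called lower and 21% higher. Of these genes, 30 had over 1 such probe set, and in 22 of them all had the same sign. Those that did not were Eif2b2, Eif2d, Eif4e, Eif4e2, Eif4ebp2, Eif4g3, Eif4h and Eif5b, and in Eif4e2, Eif4h and Eif5b probe sets were called in both directions.

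**Figure D4:**
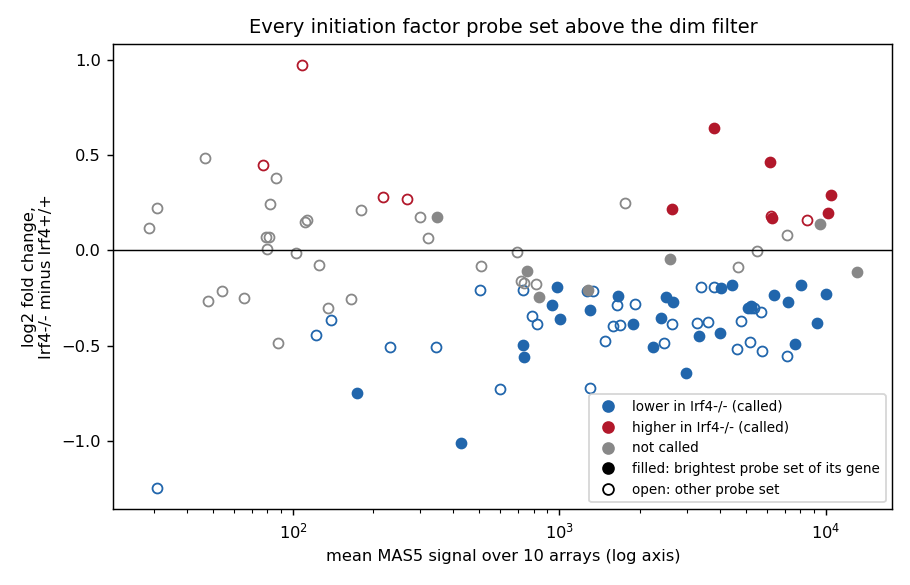
Each circle is 1 of the 108 initiation factor probe sets, placed by its mean MAS5 signal over the 10 arrays (x axis, log scale) and its log2 fold change, Irf4-/- minus Irf4+/+ (y axis). Filled circles are the brightest probe set of a gene, colours give the call with every probe set fitted on its own (59 lower, 12 higher, 37 not called), and the values spread more at low signal.

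The lower level was seen in each Irf4-/- array. Relative to the Irf4+/+ mean of each gene, the median member lay at -0.21, -0.28, -0.22, -0.29 and -0.23 on the log2 scale in Irf4-/- replicates 1 to 5, and between -0.021 and 0.041 in the Irf4+/+ arrays. The same median over all genes tested was -0.015 to 0.028 in Irf4-/- and -0.0094 to 0.020 in Irf4+/+ arrays. Between 32 and 35 of the 41 members were below their Irf4+/+ mean in any Irf4-/- array. Irf4-/- replicate 4 had the lowest signal of the 5 Irf4-/- arrays for 22 of the 41 members, the other Irf4-/- arrays for 2 to 6. That array also had the lowest 3′ to 5′ ratio of the Gapdh control (0.795, against 0.851 to 0.899 in the other Irf4-/- arrays) and the lowest 18S signal of its genotype (126.2). Its 3′ to 5′ ratio of the Actb control was the highest of its genotype (1.128, against 1.078 to 1.119 in the others), so these ratios went opposite ways. Without it 28 members fell and 7 rose. The median SD of a member's log2 value was 0.089 in Irf4-/- and 0.079 in Irf4+/+ arrays.

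**Figure D5:**
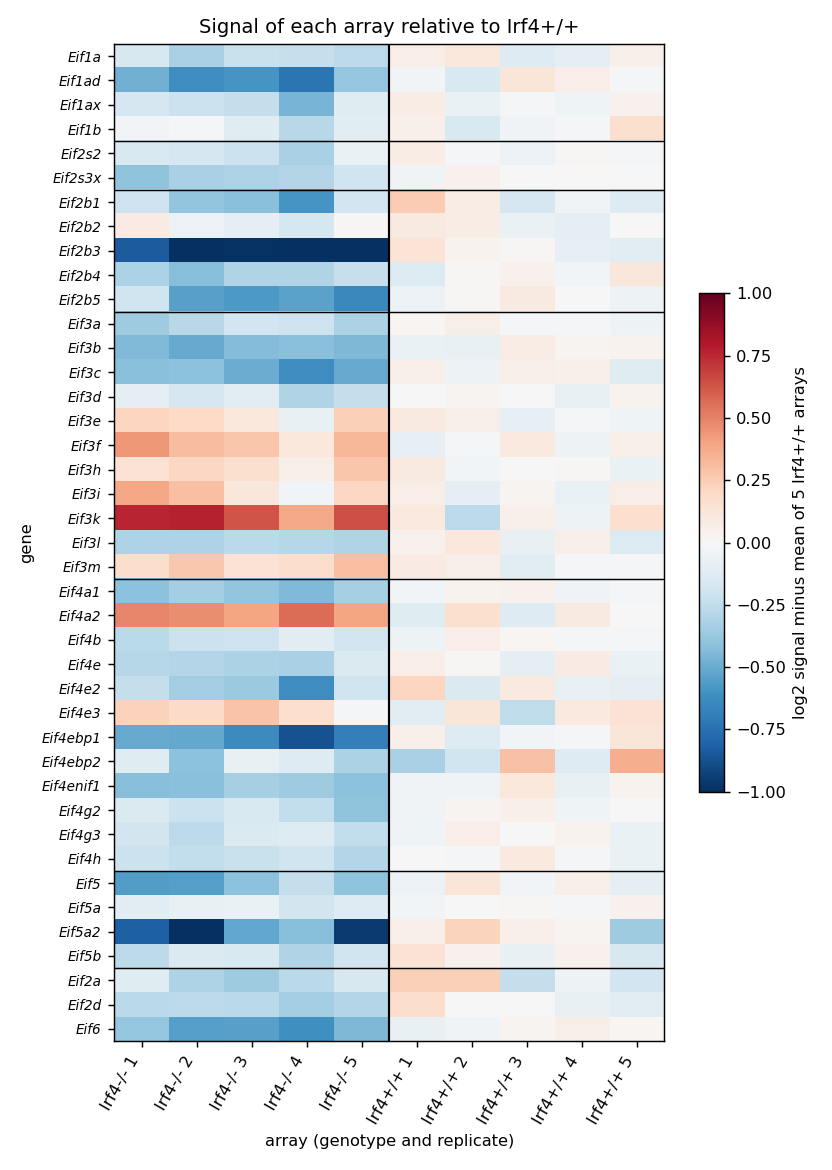
Rows are the 41 tested members by factor group and columns the 10 arrays, Irf4-/- left of Irf4+/+. Colour gives the log2 signal minus the mean of the 5 Irf4+/+ arrays (blue lower, red higher, full colour at 1 or beyond in either direction). The Irf4-/- columns are blue for most genes and red for Eif4a2 and for Eif3f, Eif3h, Eif3k and Eif3m, of which Eif3h and Eif3m were not called with median centring.

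Of 38 tested genes that act on the initiation factors 17 fell, 4 rose and 17 were not called, where 23.8% of all genes tested fell and 23.2% rose. Their median log2 fold change was -0.090, against 0.0043 over all genes tested. Ddit4, which restrains mTORC1 under stress, fell 1.99-fold and averaged 1235 ± 48.5 in Irf4-/- and 2469 ± 167.3 in Irf4+/+ arrays (SD, n = 5 each; log2 fold change -0.99, SE 0.0571, adjusted p = 4.84e-10). Abce1, which splits ribosomes for reuse, fell 1.55-fold, Pabpc4, a poly(A)-binding protein, 1.38-fold, and Atf4, the transcription factor translated when eIF2 is phosphorylated, 1.38-fold. Their adjusted p was 6.33e-07 for Abce1, 7.38e-07 for Pabpc4 and 1.78e-06 for Atf4. Pdcd4, which binds and inhibits the Eif4a helicase, rose 1.90-fold and averaged 1639.9 ± 97.0 in Irf4-/- and 860.5 ± 98.3 in Irf4+/+ arrays (SD, n = 5 each; log2 fold change 0.93, SE 0.0742, adjusted p = 2.78e-08). The eIF2 kinases Eif2ak1 and Eif2ak2, of which Eif2ak2 is interferon-inducible, rose 1.32-fold and 1.41-fold (adjusted p = 0.00125 and 0.00366). The eIF2 kinases were divided, since Eif2ak3, which responds to stress in the endoplasmic reticulum, averaged 535.6 ± 36.2 in Irf4-/- and 727.2 ± 16.8 in Irf4+/+ arrays (SD, n = 5 each) and fell 1.35-fold (log2 fold change -0.44, SE 0.0625, adjusted p = 2.07e-05). Eif2ak4, which senses uncharged tRNA, averaged 271.0 ± 28.8 in Irf4-/- and 285.2 ± 13.8 in Irf4+/+ arrays (SD, n = 5 each) and was not called (log2 fold change -0.076, SE 0.0848, adjusted p = 0.504). Mcts1, a partner in initiator tRNA delivery, rose 1.14-fold (adjusted p = 0.0212).

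Of 12 tested genes of elongation, termination and mitochondrial initiation 3 fell, 0 rose and 9 were not called, with a median log2 fold change of -0.00072. The share that fell was 25%, near the 23.8% of all genes tested. The 3 were the release factors Etf1 (1.65-fold) and Gspt1 (1.65-fold) and Eef1e1 (1.74-fold), a scaffold protein of the tRNA synthetase complex (adjusted p at most 9.37e-08). In limma 3 of the 12 had an unadjusted p under 0.05. With quantile normalization between arrays 5 of the 12 fell.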

How the data were processed

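RNA of 10 B cell samples was measured on 1-colour Affymetrix 3′ arrays (5 Irf4-/- and 5 Irf4+/+). The deposited files hold MAS5 signal intensity on a linear scale, as the submitters' processing notes name it, with no version or target stated. Each array's mean without 2% of values at either end was 250.0, so the authors' scaling was kept. Values became log2(signal + 7.9), 7.9 being the 20th percentile of all values, and the log2 fold understates change at low signal. The dim filter removed probe sets whose mean log2 value was below its 40th percentile. Per gene the brightest probe set was kept. Of 45101 probe sets 64 were controls, and 34945 had 1 symbol, 932 several and 9160 none here. Symbols were updated through a RefSeq table (GRCm38.p6), which held 34741 of the 34945.

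Genotype was fitted in limma 3.58.1 under R 4.3.3 (lmFit, eBayes with a mean-variance trend) over 12246 genes, with two-sided p adjusted by Benjamini-Hochberg. Paralog pairs were compared by exact permutation. The number of arrays limits the precision. The members and lists were chosen with earlier results of these data known. Values per array are given for Eif4e, Eif4a1, Eif4a2, Eif4ebp1, Eif4ebp2, Eif5a, Eif6 and the gene of smallest p in each factor group, and for Eif2b5, Eif3c, Eif3f, Eif3k and the untested Eif4a3, chosen after their values were seen. Other called members have their fold, and the other lists up to 4 genes a direction, to which Eif2ak3 and Eif2ak4 were added after their values were seen. Alternatives were pseudocounts, filters, scalings, variance models, array weights, the replicate block, probe set choices and each array left out. Fits of every probe set on its own were added after seeing the data.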

Additional observations from a re-analysis of the deposited data

Results flagged for a closer look

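Of 98 groups of 5 arrays looked at (42 members and 7 paralog differences in each genotype), 4 held an array far from the others, where chance flags about 1 in 20. Eif2b5 was 746.5 in Irf4-/- replicate 1 and 546.1 to 588.7 in the other Irf4-/- arrays. Eif4e was 2644 in Irf4-/- replicate 5 and 2338 to 2407 in the others. The log2 difference of Eif5a and Eif5a2 was 6.32 in Irf4+/+ replicate 5 and 5.70 to 5.87 in the others. The log2 difference of Eif5 and Eif5b was 1.55 in Irf4+/+ replicate 1 and 1.77 to 1.83 in the others.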

How the results depend on the processing

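Over 22 alternatives, the number of called genes was 5396 to 5970 and the number of members called lower 23 to 30, against 5764 and 30. Leaving out 1 array in turn gave 5396 to 5665 called genes, 28 to 29 members lower and 5 to 7 higher, and a member median of -0.27 to -0.24. Of 36 called members 33 kept their call without any 1 array, Eif2a, Eif3i and Eif5a being the others. Median centring gave 3 members higher and a median of -0.30. With the mean of a gene's probe sets 23 members fell, and Eif2b2 (0.089), Eif4g3 (0.18), Eif4h (0.15) and Eif5b (0.0082) had the opposite sign. Without probe sets marked _x_at or _s_at, Eif2b2 (0.25) and Eif4h (0.18) did. That setting tested 39 members and left out Eif3m and Eif5a, whose probe sets all carry these marks. Of the member values under the alternatives 850 kept direction and side of the threshold, 39 lost their call, 5 gained one and 6 changed sign. The causes were not tested.

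Quantile normalization gave 5 lower genes of elongation, termination and mitochondrial initiation, and called the differences of Eif4a1/Eif4a2 (-0.87) and Eif5a/Eif5a2 (0.60). The mean of probe sets called Eif4a1/Eif4a2 (-0.95), Eif4ebp1/Eif4ebp2 (-0.38), Eif1a/Eif1ax (0.27) and Eif5/Eif5b (-0.32), and turned Eif4e/Eif4e2 (-0.16) and Eif4b/Eif4h (-0.37). Without _x_at and _s_at probe sets Eif4a1/Eif4a2 was called (-0.84, adjusted p = 0.0476) and Eif4b/Eif4h was -0.38. With 1 array left out the pairs ranged from -0.88 to -0.80 (Eif4a1/Eif4a2), -0.052 to 0.048 (Eif1a/Eif1ax), 0.017 to 0.059 (Eif4b/Eif4h), 0.029 to 0.12 (Eif4e/Eif4e2), -0.51 to -0.34 (Eif4ebp1/Eif4ebp2), -0.29 to -0.18 (Eif5/Eif5b) and 0.56 to 0.73 (Eif5a/Eif5a2). Deviations of same-numbered arrays correlated at -0.034 to 0.054, which shows no large shared effect. Whether same-numbered samples had a common origin is unstated. With the replicate block 5677 genes were called, 6 members rose and 29 fell, Eif5a not being called (adjusted p = 0.0705), and no array correlated best with its own number.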

Other observations

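Probe sets that name a factor together with another symbol were outside the gene tests. Of the 6, 3 share Eif3j1 and Eif3j2, copies of an eIF3 subunit, and were lower in Irf4-/- arrays. The brightest averaged 2115 ± 92.2 in Irf4-/- and 3080.2 ± 144.1 in Irf4+/+ arrays (SD, n = 5 each), a log2 difference of -0.54, and the other two gave -0.70 and -0.66. A probe set shared by Eif4a3 and Gm5576 averaged 2690.4 ± 74.4 in Irf4-/- and 2952 ± 76.6 in Irf4+/+ arrays, a log2 difference of -0.13. Each of these 4 had exact permutation p = 0.00794, the smallest that 5 against 5 can give (adjusted p = 0.0119 over 6 probe sets). The probe set shared by Eif4ebp3 and Ankhd1 gave -0.082 (exact permutation p = 0.31, adjusted p = 0.371), and the dim one shared by Eif1a with Gm4027 and BB287469 gave 0.067 (exact permutation p = 0.825, adjusted p = 0.825). Which of the named transcripts each probe set measured cannot be told apart.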
